A study of Homo sapiens with 6 samples.

Results

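The genes of epidermal cornification, the program by which skin cells turn into a dead, crosslinked barrier, were followed in MCF10CA1a cells on soft and stiff gels. They are 42 gene symbols chosen by name and role, with earlier results of these data known. All 42 were found among the 26484 symbols of the count tables. MCF10CA1a is a malignant, established cell line of the MCF10A human breast epithelial lineage. All 6 libraries came from this single line, grown on Petrisoft dishes conjugated with growth factor-reduced Matrigel at 0.14 mg/ml in DMEM/F12 with 5% horse serum. The 500 Pa group (soft, 3 libraries) and the 8000 Pa group (stiff, 3 libraries) differed in gel stiffness, the medium was changed on day 4, RNA was taken on day 5, and the labels call it both total and cytosolic RNA. The labels number 3 biological replicates per stiffness, and name no edited gene and no drug.

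Library totals ran from 8305601 to 18779742 counts, and levels are given as CPM, counts scaled to library size. A gene with 0 counts could still have held up to 3, which is 0.167 to 0.428 CPM depending on the library. The epithelial identity of the line was visible in every library. All 6 luminal and all 6 basal epithelial markers examined were expressed well enough to be tested, with KRT8 at 5943 to 14838 CPM and KRT5 at 378 to 886 CPM. Of 9 suprabasal keratinocyte markers, KRT1, LOR, FLG and TGM3 had 0 counts in all 6 libraries. KRT2 and IVL had 3 and 24 counts summed over the libraries. The other 3 were tested, KRT10 at 21.3 to 57.5 CPM, SPRR1B at 16.4 to 84.7 CPM and TGM1 at 5.90 to 19.4 CPM. Parts of the cornification program were thus counted and others were not. In bulk RNA, fewer cells of a type and less RNA per cell cannot be told apart.

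In skin, the cornified envelope is built under the plasma membrane from small precursors such as involucrin, loricrin and the small proline-rich (SPRR) proteins. Transglutaminases crosslink these precursors onto a scaffold of plakins, peptidylarginine deiminases convert arginines in filament proteins to citrulline, and kallikrein proteases cut the corneodesmosomes so that dead cells are shed. Simple and mammary epithelia do not cornify, although several of these genes are also used in stratified and glandular epithelia.

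Members differed over several orders of magnitude in level. Of the 42, 28 passed the filter on low counts and could be tested, 9 had some counts but were not tested, and 5 had 0 counts in every library. The 5 were LOR (loricrin), FLG (filaggrin), RPTN (repetin), CRNN (cornulin) and TGM3 (a transglutaminase). The limit on a count of 0 given above covers counting error only. Among the 9, the summed counts over 6 libraries were 54 for SPRR2D, 33 for SPRR2E, 24 for IVL (involucrin), 18 for CDSN (corneodesmosin), 12 for KLK7, 12 for SPINK5, 11 for SBSN (suprabasin), 6 for KLK13 and 1 for RHCG. Involucrin, loricrin, filaggrin and corneodesmosin, which are proteins of the skin barrier, were thus among the genes with few or 0 counts. Other members of keratinocyte differentiation, among them CALML5, CASP14, TGM1, SPRR1B and CNFN, had enough counts to be tested.

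On the length-adjusted TPM scale, used wherever genes are ranked against each other, KLK5 was the highest member at 4357 ± 1504 TPM (mean ± SD over the 6 libraries) and ranked 25 among all genes. KLK6 followed at 1307 ± 415 TPM, and CSTB, the cystatin B protease inhibitor, at 851 ± 131 TPM. Their order depends on the transcript lengths used, 1708 bases for KLK6 and 2354 bases for CSTB, and other transcripts were not tried. LYPD3, a cell surface protein also called C4.4A, stood at 679 ± 139 TPM, KLK10 at 373 ± 93.0 TPM, PADI2 at 279.6 ± 78.6 TPM and DMKN, the secreted protein dermokine, at 220.4 ± 39.7 TPM. Mean ± SD ranges overlapped between the neighbours KLK6 and CSTB, CSTB and LYPD3, KLK10 and PADI2, and PADI2 and DMKN, and did not overlap between KLK5 and KLK6 or between LYPD3 and KLK10. All 42 members together took 0.807%, 0.644% and 1.20% of counts in 500 Pa replicates 1, 2 and 3, and 0.658%, 0.797% and 0.883% in 8000 Pa replicates 1, 2 and 3. KLK5, KLK6 and KLK10 made up 58.0% to 75.6% of that share.

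**Figure D1:**
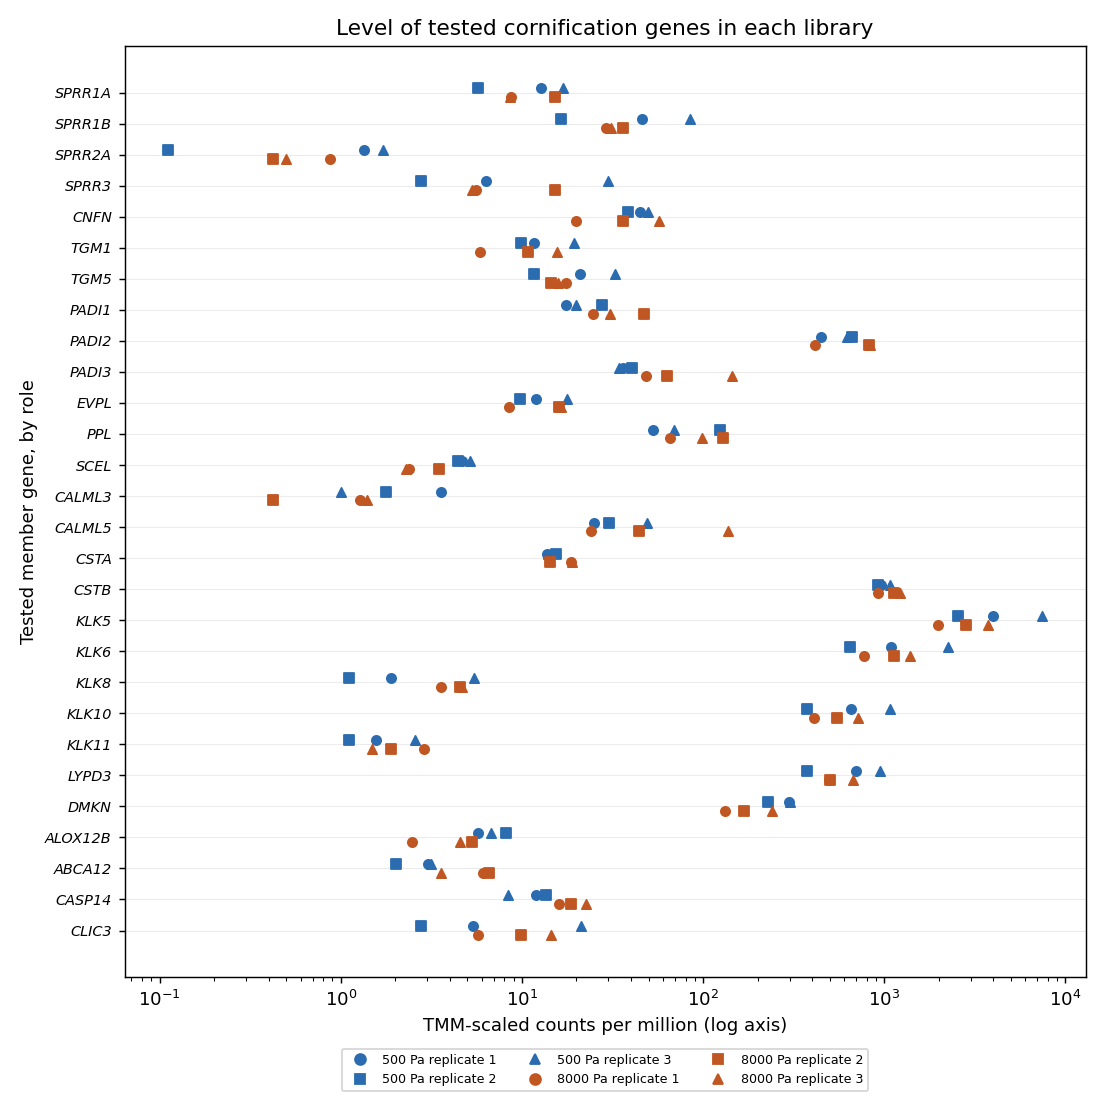
CPM (TMM-scaled, log axis) of the 28 tested members in each of the 6 libraries, with colour for stiffness and symbol for replicate number. Levels run from below 1 CPM for SPRR2A to 7404 CPM for KLK5, and PADI3 is among the few genes whose orange 8000 Pa points all lie to the right of the blue 500 Pa points.

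The comparison asked which of these genes differ between soft and stiff gels. PADI3, peptidylarginine deiminase 3, was the single member called, and only once the replicate number was taken into account. In the unpaired edgeR fit 0 of the 28 tested members passed an FDR of 0.05, against 0.0% of the 11517 genes tested, with 4 members at an unadjusted p under 0.05 (PADI3, ABCA12 and CASP14 higher at 8000 Pa and DMKN lower) against 2.45% of all tested genes. At that p, 3 members were higher against 1.47% of all tested genes and 1 was lower against 0.981%. DESeq2 and limma-voom without pairing also called 0 members. In the edgeR fit with the replicate number as a block, below called the paired fit, 1 of 28 passed, which is 3.57% against 0.53% of all tested genes, and 0.26% of all tested genes were called higher. At an unadjusted p under 0.05, 5 members were higher against 4.49% of all tested genes and 3 were lower against 6.12%. The median log2 fold change (8000 Pa over 500 Pa) of the tested members was -0.17 unpaired and -0.10 paired, with medians over all tested genes of 0.01 and -0.01. In both fits 13 members had a fold change above 0 and 15 below 0. Members were thus found on both sides of 0.

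**Figure D2:**
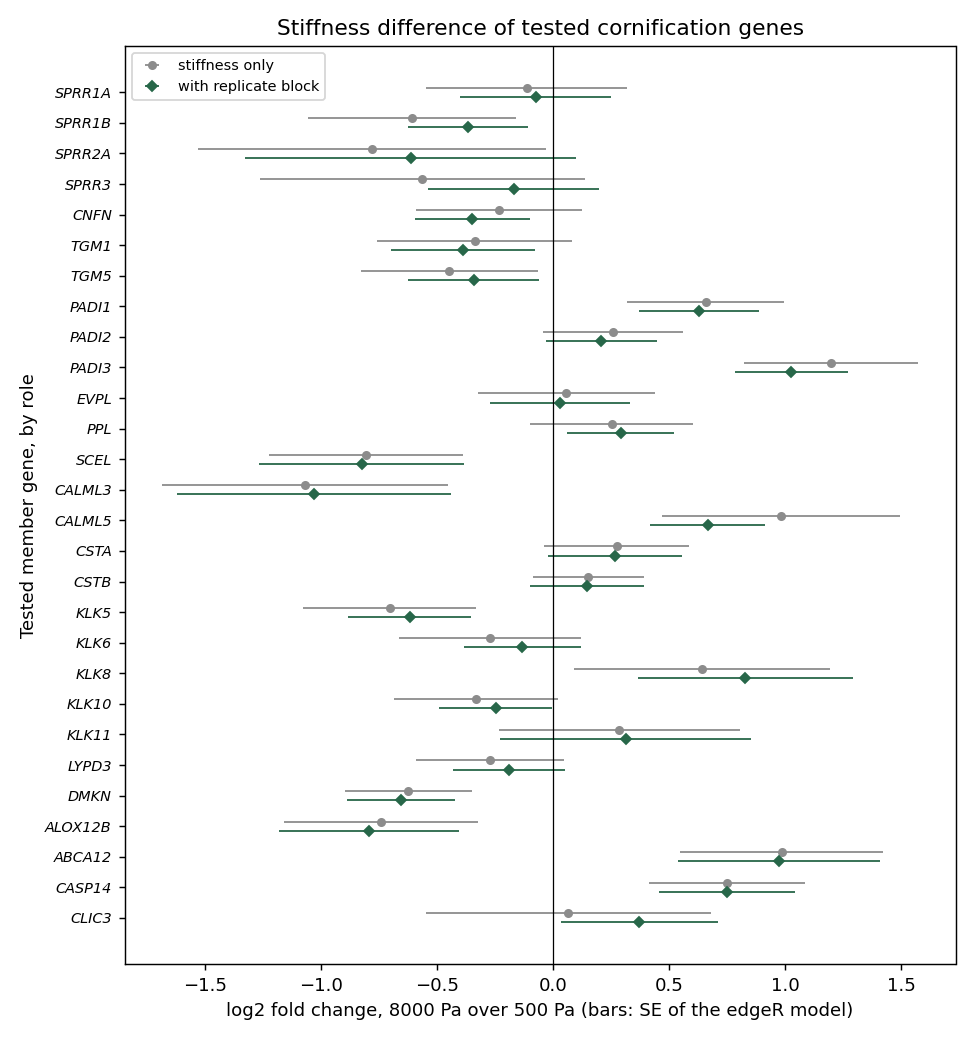
Log2 fold change of stiff over soft for the 28 tested members, with error bars of 1 standard error from edgeR, without (grey circles) and with (green diamonds) the replicate block. Error bars with the block use a spread shared by all genes. Fold changes lie on both sides of 0, from -1.03 for CALML3 to 1.03 for PADI3 in the paired fit, and the 3 deiminases are all to the right of 0.

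The deiminases PADI1, PADI2 and PADI3 convert arginine to citrulline, and PADI1 and PADI3 are the forms of the upper epidermis and hair follicle. PADI3 had 35.9, 40.7 and 34.5 CPM in 500 Pa replicates 1, 2 and 3 and 48.5, 63.1 and 144 CPM in 8000 Pa replicates 1, 2 and 3. The groups did not overlap, the soft libraries were tightly spaced, and 8000 Pa replicate 3 stood well above the other stiff libraries. The means were 85.1 ± 51.2 CPM at 8000 Pa and 37.1 ± 3.25 CPM at 500 Pa (SD, n = 3 each), and PADI3 rose in the paired fit (edgeR adjusted p = 0.00967) with a log2 fold change of 1.03 and an SE of 0.24. The log2 ratio was 0.43 in pair 1, 0.63 in pair 2 and 2.05 in pair 3. The edgeR SE of a paired fit comes from a spread shared by all genes, so it does not measure the distance between these pairs. Without replicate 3 the log2 fold change was 0.58 and PADI3 did not pass (adjusted p = 0.9999 by edgeR), and DESeq2 with the block gave an adjusted p of 0.108.

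PADI1 had 17.6, 27.7 and 19.8 CPM in 500 Pa replicates 1 to 3 and 24.6, 47.4 and 30.7 CPM in the 8000 Pa replicates. The groups overlapped because 500 Pa replicate 2 exceeded 8000 Pa replicate 1, yet the stiff library was higher in each pair. Its paired log2 fold change was 0.63 (SE 0.26, adjusted p = 0.319 by edgeR), and it passed when a GC-content offset was added to the block (log2 fold change 0.78, adjusted p = 0.0347 by edgeR). PADI2 had 447, 663 and 624 CPM at 500 Pa and 414, 822 and 835 CPM at 8000 Pa, with overlapping groups and a paired log2 fold change of 0.21 (SE 0.24). The 3 genes are neighbours on chromosome 1 (GRCh38), PADI2 from 17066761 to 17119435 on the minus strand, PADI1 from 17205126 to 17246005 and PADI3 from 17249098 to 17284233 on the plus strand. PADI4 and PADI6, the next genes along, had 47 and 1 counts over the 6 libraries. On the TPM scale the order was PADI2 at 279.6, PADI3 at 36.7 ± 22.9 and PADI1 at 14.3 ± 6.39. The mean ± SD ranges of PADI3 and PADI1 overlapped, although PADI3 had the higher CPM within each of the 6 libraries.

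CASP14, the keratinocyte protease that takes part in filaggrin breakdown, had 12.0, 13.5 and 8.42 CPM at 500 Pa and 16.0, 18.6 and 22.7 CPM at 8000 Pa (replicates 1 to 3). All 3 stiff libraries exceeded all 3 soft ones, with a paired log2 fold change of 0.75 (SE 0.29, adjusted p = 0.298 by edgeR). It did not pass, and its usual substrate gene FLG had 0 counts.

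The envelope precursors with enough counts for a test were SPRR1A, SPRR1B, SPRR2A, SPRR3 and CNFN (cornifelin). SPRR1B had 45.8, 16.4 and 84.7 CPM in 500 Pa replicates 1, 2 and 3 and 28.95, 36.2 and 31.0 CPM in 8000 Pa replicates 1, 2 and 3. The stiff libraries sat together inside the wide range of the soft ones. SPRR3 had 6.36, 2.79 and 29.98 CPM at 500 Pa and 5.58, 15.3 and 5.28 CPM at 8000 Pa. Its lowest and highest libraries were both on soft gels, replicates 2 and 3. SPRR1A followed the same order on soft gels, with 12.7, 5.69 and 16.8 CPM at 500 Pa against 8.69, 15.3 and 8.56 CPM at 8000 Pa. For these 3 genes the log2 ratio of stiff over soft was below 0 in pairs 1 and 3 and above 0 in pair 2, where it reached 2.38 for SPRR3, 1.40 for SPRR1A and 1.13 for SPRR1B. None passed, with paired log2 fold changes of -0.37 (SE 0.26) for SPRR1B, -0.17 (SE 0.37) for SPRR3 and -0.08 (SE 0.33) for SPRR1A. DESeq2 with the block gave SEs of 0.72 for SPRR1B, 1.15 for SPRR3 and 0.43 for SPRR1A. SPRR2A ranged from 1 to 24 counts per library, with a paired log2 fold change of -0.61 (SE 0.71), and SPRR2D and SPRR2E reached 25 and 18. These SPRR2 genes are near-identical copies, so their counts are uncertain. CNFN had 44.8, 38.6 and 49.7 CPM at 500 Pa and 19.9, 36.0 and 57.2 CPM at 8000 Pa, with overlapping groups and a paired log2 fold change of -0.35 (SE 0.25). The 5 tested precursors all had a paired log2 fold change below 0 and 0 were called, and with the GC offset SPRR1A turned to 0.25.

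The SPRR genes lie with IVL, LOR, FLG, RPTN and CRNN in the epidermal differentiation complex, where the 11 members span chromosome 1 from 152153595 to 153262122 (GRCh38), and 4 of the 11 were tested. SPRR1A, SPRR1B and SPRR3 had the same order among the soft libraries, an order shared with most tested members. The upstream sequences of these SPRR genes were read for the AP-1 motif, the site of the FOS and JUN factors. The 250 bases before the RefSeq start (GRCh38.p14) are shown for the 3 best expressed SPRR genes and for IVL, a precursor with few counts, 5′ to 3′ with each match to TGANTCA in capitals.
SPRR1A: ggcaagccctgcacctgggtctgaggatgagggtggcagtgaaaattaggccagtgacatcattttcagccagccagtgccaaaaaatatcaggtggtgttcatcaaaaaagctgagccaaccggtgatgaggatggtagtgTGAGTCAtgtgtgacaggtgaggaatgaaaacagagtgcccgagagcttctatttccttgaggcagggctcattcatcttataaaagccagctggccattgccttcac
SPRR1B: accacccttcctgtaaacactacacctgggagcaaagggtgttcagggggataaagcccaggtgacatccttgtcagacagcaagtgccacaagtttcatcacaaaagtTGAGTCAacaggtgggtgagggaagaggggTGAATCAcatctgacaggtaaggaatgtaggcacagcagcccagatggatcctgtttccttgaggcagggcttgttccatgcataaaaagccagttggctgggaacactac
SPRR3: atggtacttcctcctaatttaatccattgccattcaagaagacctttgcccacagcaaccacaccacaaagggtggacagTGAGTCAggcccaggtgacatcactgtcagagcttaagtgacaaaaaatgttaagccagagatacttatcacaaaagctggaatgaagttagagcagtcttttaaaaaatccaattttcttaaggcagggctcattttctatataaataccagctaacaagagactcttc
IVL: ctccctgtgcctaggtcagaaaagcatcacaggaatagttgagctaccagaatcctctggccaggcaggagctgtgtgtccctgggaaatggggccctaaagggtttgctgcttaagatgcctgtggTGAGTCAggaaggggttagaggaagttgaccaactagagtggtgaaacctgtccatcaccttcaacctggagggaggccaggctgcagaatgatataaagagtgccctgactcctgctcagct

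These windows are chr1:152983831-152984080 for SPRR1A, chr1:153030953-153031202 for SPRR1B, chr1:153001499-153001748 for SPRR3 and chr1:152908296-152908545 for IVL, all on the plus strand. Counted back from the RefSeq start, the match begins at -108 in SPRR1A, at -141 and -111 in SPRR1B, at -170 in SPRR3 and at -123 in IVL. TGANTCA reads the same on both strands. It occurred in 6.57% of all 35116 windows of this length, and in 13 of the 39 windows of members, which belong to 12 of the 31 members with an entry. Of these 12 genes, 7 were tested (SPRR1A, SPRR1B, SPRR2A, SPRR3, SCEL, DMKN and CASP14) and 3 had 0 counts (CRNN, FLG and RPTN), so the letters occurred in members with and without counts. The grainyhead-like motif AACNGGTT, searched on both strands, occurred in 1.49% of all windows and in those of TGM5, RPTN and SPINK5; RPTN held both motifs. A match describes letters and not binding. KLK5, KLK6, KLK10, KLK11, TGM5, CNFN, LYPD3, ABCA12 and CLIC3 had the soft-gel order of the SPRR genes, and their windows held no AP-1 match. Of the 7 tested genes with a match, CASP14 did not have that order and the others did. A link between motif and order was not tested. Members without an entry were LOR, SPRR2D, SPRR2E, TGM1, PADI3, EVPL, PPL, CSTA, CSTB, KLK8 and RHCG.

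Of the crosslinking enzymes, TGM1, the membrane-bound transglutaminase of keratinocytes, had 11.7, 9.82 and 19.4 CPM at 500 Pa and 5.90, 10.9 and 15.5 CPM at 8000 Pa, with overlapping groups. TGM5, an epidermal transglutaminase, had 21.0, 11.6 and 32.7 CPM at 500 Pa and 17.5, 14.5 and 15.7 CPM at 8000 Pa. As with SPRR1B, the stiff libraries fell inside the soft range. Neither passed, with paired log2 fold changes of -0.39 (SE 0.31) and -0.34 (SE 0.28). Neither plakin passed. PPL, the plakin periplakin, had 53.1, 125 and 69.2 CPM at 500 Pa and 65.5, 129 and 99.2 CPM at 8000 Pa, with a paired log2 fold change of 0.29 (SE 0.23). EVPL, its partner envoplakin, ranged from 8.45 to 17.7 CPM over the 6 libraries with a paired log2 fold change of 0.03 (SE 0.30). SCEL, the envelope-associated sciellin, had 4.69, 4.47 and 5.14 CPM at 500 Pa and 2.39, 3.48 and 2.29 CPM at 8000 Pa. Its groups did not overlap and the stiff libraries were lower, but it did not pass (edgeR adjusted p = 0.511), with a paired log2 fold change of -0.82 and an SE of 0.44.

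The kallikreins are trypsin- and chymotrypsin-like serine proteases of desquamation. KLK5 and KLK6 were the 2 members of highest TPM at the transcript lengths used. KLK5, which is known to activate other kallikreins in skin, had 3963, 2553 and 7404 CPM in 500 Pa replicates 1, 2 and 3 and 1972, 2828 and 3735 CPM in 8000 Pa replicates 1, 2 and 3. The groups overlapped, and the soft libraries spread further than the stiff ones. Its means were 4640.2 ± 2495 and 2845 ± 882 CPM (SD, n = 3 each), with a paired log2 fold change of -0.62 (SE 0.27, adjusted p = 0.348 by edgeR), and -1.01, 0.15 and -0.99 as the log2 ratios in pairs 1 to 3. The unpaired value was -0.71, and -0.15 without 500 Pa replicate 3. KLK6 had 1094, 646 and 2244 CPM at 500 Pa and 774, 1131 and 1393 CPM at 8000 Pa. KLK10, related in sequence to them and of less clear function, had 658, 375 and 1072 CPM at 500 Pa and 408, 546 and 715 CPM at 8000 Pa. In each of the 3 genes, soft replicate 3 was the highest and soft replicate 2 the lowest of the soft libraries, and on stiff gels replicate 3 was the highest and replicate 1 the lowest. Paired log2 fold changes were -0.13 (SE 0.25) for KLK6, which turned to 0.033 with the GC offset, and -0.25 (SE 0.24) for KLK10.

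The counts of the family came mostly from a few genes of its cluster. Of the 15 KLK genes on chromosome 19, 3 exceeded 100 TPM and 12 stayed under 10 TPM, and the 7 members lie between 50943303 and 51065114 (GRCh38). KLK7, the chymotrypsin-like partner of KLK5 in skin, lies between KLK6 and KLK8 and had 0, 3 and 0 counts at 500 Pa and 3, 4 and 2 counts at 8000 Pa. KLK8 had 1.90, 1.12 and 5.42 CPM at 500 Pa and 3.59, 4.54 and 4.68 CPM at 8000 Pa, with overlapping groups. KLK11 ranged from 1.12 to 2.87 CPM, and KLK13 had 6 counts, all in 8000 Pa replicates 2 and 3. KLK8 and KLK11 had paired log2 fold changes of 0.83 (SE 0.46) and 0.31 (SE 0.54) and did not pass. SPINK5, which encodes the kallikrein inhibitor LEKTI, had 12 counts in all. Antisense genes overlap KLK5, KLK6, KLK7, KLK8 and KLK10 in GENCODE 29, and no source used here states whether the counting used strand, so their reads cannot be told apart. They cover the whole span of KLK7 and KLK8. Genes on the same strand also overlap KLK8 (6694 bases) and KLK6 (585 bases), which strand would not resolve. The low counts of KLK7 and KLK8 are thus uncertain.

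**Figure D3:**
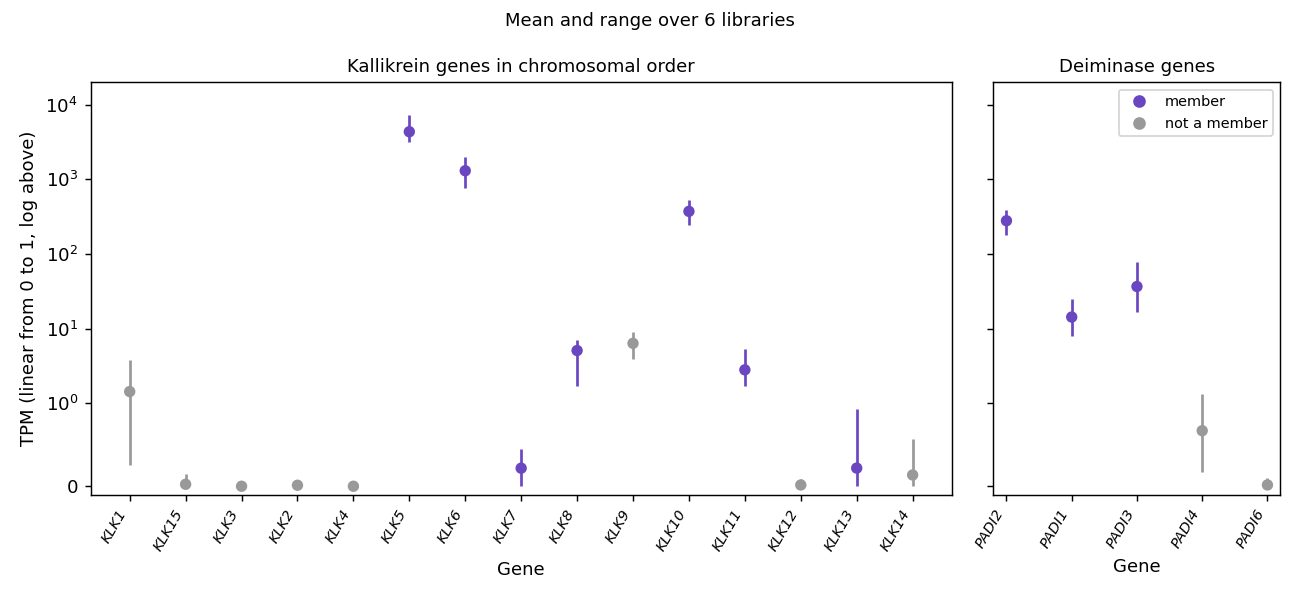
TPM of the kallikrein genes (left) and deiminase genes (right) in chromosomal order, as the mean (point) and range (line) over 6 libraries. KLK5, KLK6 and KLK10 exceed 100 TPM while their neighbours stay under 10 TPM, and PADI2, PADI3 and PADI1 stand above PADI4 and PADI6.

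Calmodulin-like proteins bind calcium, and CALML5 is a late differentiation gene of keratinocytes. CALML5 had 24.9, 30.1 and 49.1 CPM in 500 Pa replicates 1, 2 and 3 and 24.0, 44.3 and 137 CPM in 8000 Pa replicates 1, 2 and 3. The groups overlapped, and 8000 Pa replicate 3, the library with the highest PADI3, stood far above the next highest library, 500 Pa replicate 3. Its paired log2 fold change was 0.66 (SE 0.25, adjusted p = 0.243 by edgeR). It passed with the GC offset added to the block (log2 fold change 1.10, adjusted p = 0.00172) and in the paired fit without replicate 1 (1.05, adjusted p = 0.00305 by edgeR), where it and PADI3 were called higher against 0.217% of all tested genes. Without 8000 Pa replicate 3 its unpaired value was -0.018. CALML3 ranged from 4 to 64 counts per library, with a paired log2 fold change of -1.03 (SE 0.59), and did not pass. The cystatins, inhibitors of cysteine proteases, varied least of the 28 tested members. CSTB had 957, 919 and 1079 CPM at 500 Pa and 929, 1135 and 1216 CPM at 8000 Pa, and CSTA had 13.7, 15.5 and 13.8 CPM at 500 Pa and 18.7, 14.3 and 18.9 CPM at 8000 Pa. Their highest library was 1.32 and 1.38 times their lowest, and neither passed, with paired log2 fold changes of 0.14 (SE 0.24) and 0.27 (SE 0.29).

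Among secreted and surface proteins, DMKN had 298, 229 and 302 CPM at 500 Pa and 131, 167 and 239 CPM at 8000 Pa. The stiff library was lower in each pair, although 8000 Pa replicate 3 exceeded 500 Pa replicate 2. The paired log2 fold change was -0.66 (SE 0.23, adjusted p = 0.204 by edgeR), so it did not pass. LYPD3 had 696, 373 and 950.1 CPM at 500 Pa and 493, 503 and 675 CPM at 8000 Pa, with overlapping groups and the same order on soft gels as the abundant kallikreins. Its paired log2 fold change was -0.19 (SE 0.24), and 0.056 with the GC offset. Genes of the lipid barrier were low and differed in sign. ALOX12B, a lipoxygenase acting on barrier lipids, had 5.75, 8.15 and 6.71 CPM at 500 Pa and 2.47, 5.28 and 4.58 CPM at 8000 Pa. ABCA12, a lipid transporter of lamellar granules, had 3.01, 2.01 and 3.14 CPM at 500 Pa and 6.06, 6.54 and 3.58 CPM at 8000 Pa. Neither gene's groups overlapped, and neither passed, with paired log2 fold changes of -0.79 (SE 0.39, adjusted p = 0.444 by edgeR) and 0.97 (SE 0.44, adjusted p = 0.383 by edgeR). CLIC3, an intracellular chloride channel protein, had 5.36, 2.79 and 21.1 CPM at 500 Pa and 5.74, 9.92 and 14.5 CPM at 8000 Pa. The soft libraries enclosed all the stiff ones, and its paired log2 fold change was 0.37 (SE 0.34).

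Counted over members, the groups did not overlap for 5 of 28 (17.9%), PADI3, ABCA12 and CASP14 higher and SCEL and ALOX12B lower at 8000 Pa, against 6.87% of all tested genes. By direction, the background was 4.02% higher and 2.85% lower. The stiff library was higher in each pair for 5 members (17.9%; PADI1, PADI3, PPL, ABCA12 and CASP14) against 14.6% of all tested genes. It was lower in each pair for 3 members (10.7%; SCEL, DMKN and ALOX12B) against 15.2%. The other 20 members differed in direction between pairs. Over all 28 tested members the median log2 ratio was -0.38 in pair 1, 0.50 in pair 2 and -0.33 in pair 3, with medians over all tested genes of 0.03, -0.02 and -0.02. So members were mostly lower on stiff gels in pairs 1 and 3 (19 and 17 of 28) and mostly higher in pair 2 (22 of 28).

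The soft libraries of pairs 2 and 3 stood apart in these genes. For 19 of the 28 members (67.9%) 500 Pa replicate 3 was the highest and 500 Pa replicate 2 the lowest soft library, an order seen in 22.4% of all tested genes. The 19 included every tested SPRR gene and kallikrein, both tested transglutaminases, CNFN, EVPL, SCEL, CSTB, LYPD3, DMKN, ABCA12 and CLIC3, but no deiminase. On stiff gels, 15 members (53.6%) were highest in replicate 3 and lowest in replicate 1, against 32.5% of all tested genes. The highest library exceeded the lowest by over 3 times in 13 members (46.4%) against 27.6% of all tested genes. Transcript GC content moved with this order. The tested members had a median GC content of 56.6% against 48.3% over all tested genes, and the log2 ratio of 500 Pa replicate 3 over replicate 2 had a Spearman rho of 0.44 with GC content across 10986 genes, given as a description since genes share their libraries. The log2 ratio of pair 1 had a rho of -0.62 with GC content, against 0.06 in pair 2 and 0.02 in pair 3. What part GC content had in the members' order was not tested. With the GC offset the paired median of the members was 0.11, and 3 of 28 passed (PADI1, PADI3 and CALML5, all higher) against 0.747% of all tested genes called in either direction and 0.417% called higher.

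**Figure D4:**
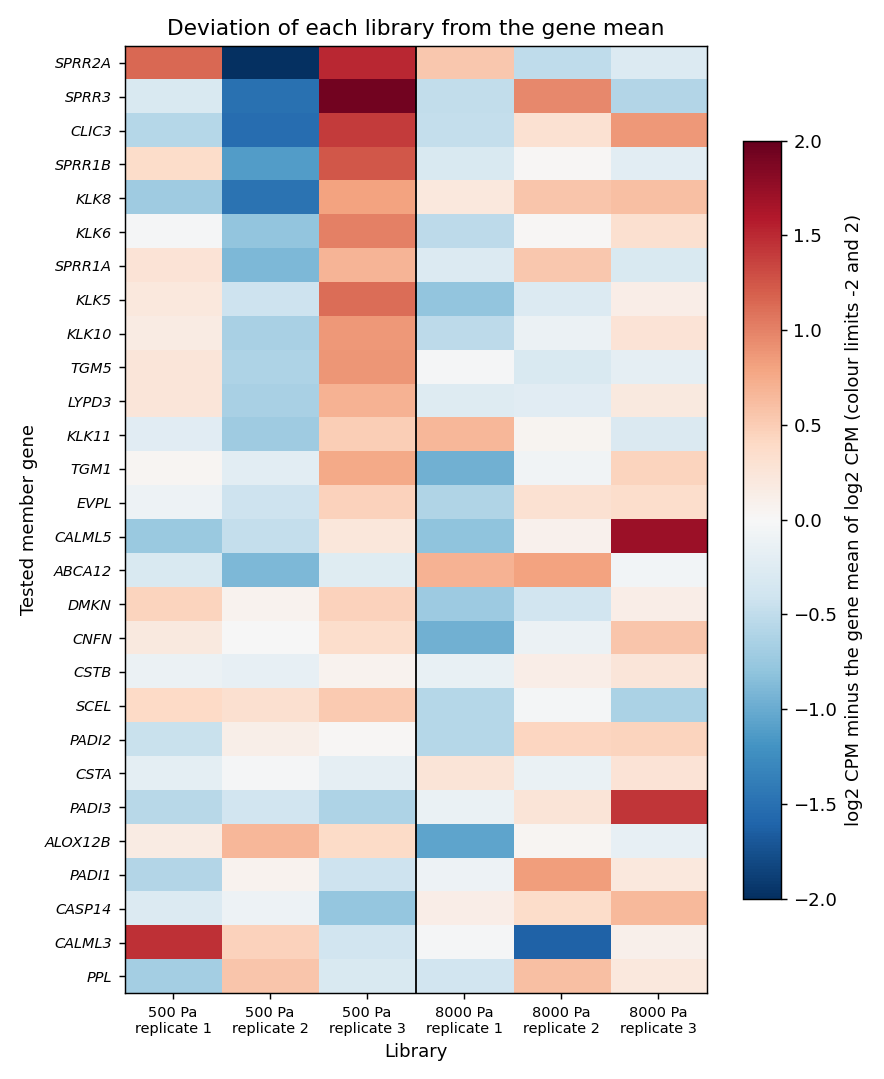
Log2 CPM of each of the 28 tested members in each library, minus the gene's mean over the 6 libraries, with genes sorted by 500 Pa replicate 3 minus 500 Pa replicate 2. The upper rows are red in 500 Pa replicate 3 and blue in 500 Pa replicate 2, and the strongest red cells on stiff gels are CALML5 and PADI3 in 8000 Pa replicate 3.

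Other genes of the same biology were read from lists of regulators, keratins, lipid enzymes and proteases. GRHL3, a grainyhead-like factor of epidermal differentiation, had 3.13, 7.26 and 6.57 CPM at 500 Pa and 11.5, 16.2 and 14.3 CPM at 8000 Pa (replicates 1 to 3). The groups did not overlap, and it rose in the paired fit (edgeR adjusted p = 0.0107, with a log2 fold change of 1.39 and an SE of 0.33), as 1 of 15 tested transcription regulators. With 1 pair left out it no longer passed, with adjusted p of 0.116, 0.0776 and 0.207 by edgeR without replicate 1, 2 and 3 and log2 fold changes of 1.16 to 1.57. S100A9, a calprotectin subunit encoded in the epidermal differentiation complex, had 42.6, 30.7 and 119.8 CPM at 500 Pa and 80.2, 135 and 182 CPM at 8000 Pa. The groups overlapped, but the stiff library was higher in each pair. It rose in the paired fit (edgeR adjusted p = 3.65e-04, with a log2 fold change of 1.20 and an SE of 0.24), as 1 of 5 tested genes of that list. It did not pass without replicate 2 (log2 fold change 0.76, adjusted p = 0.205 by edgeR) or without replicate 3 (1.57, adjusted p = 0.0650 by edgeR).

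The other lists held no called gene in either fit. Among 7 tested keratinocyte keratins 0 passed, with the mucosal keratin KRT13 at 531, 245 and 1553 CPM at 500 Pa and 566, 979 and 773 CPM at 8000 Pa. KRT13 thus had the same order on soft gels as the SPRR genes. KRT6B, a keratin of activated keratinocytes, had 1319 ± 254 CPM at 500 Pa and 901 ± 111 CPM at 8000 Pa, with no call. Of 9 tested lipid enzymes and carriers 0 passed, with the sulfotransferase SULT2B1 at 106 ± 54.4 and 86.1 ± 36.6 CPM and the fatty acid transporter SLC27A4 at 67.9 ± 24.4 and 48.5 ± 16.9 CPM. Of 12 tested protease inhibitors and further proteases 0 passed, including the lysosomal protease CTSD at 17454 ± 6165 and 12944 ± 4773 CPM and SPINT2, an inhibitor of serine proteases, at 2632 ± 261 and 2521 ± 704 CPM. Of 8 desmosome genes 0 passed, with plakoglobin (JUP) at 926 ± 234 and 693 ± 262 CPM and PERP at 460.2 ± 130.3 and 502 ± 109 CPM, and DSG1, DSC1 and PKP1 had 0 counts. TGM2, the tissue transglutaminase and the single tested gene of its list, had 66.4 ± 45.8 and 93.9 ± 56.0 CPM, and KLK9, likewise single, had 3.22 ± 1.05 and 2.02 ± 1.04 CPM.

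Markers of other cell types were read beside these results. Of 5 endothelial markers, 2 rose on stiff gels in the paired fit (PECAM1 and CDH5), neither of which passed without replicate 3 (adjusted p = 0.877 and 0.207 by edgeR), and the list summed to 92.6 to 149 CPM at 500 Pa and 208 to 251 CPM at 8000 Pa. By gene, PECAM1 ranged from 89.1 to 241 CPM and CDH5 from 1.12 to 16.1 CPM, while TEK, KDR and VWF stood at 0 to 0.428 CPM in all libraries. The part of these endothelial markers in the members' values was not tested. Fibroblast markers summed to 0.949 to 1.86 and 0.957 to 4.64 CPM, with COL1A2, COL3A1 and LUM at 0 counts, and leukocyte markers to 21.9 to 47.0 and 19.8 to 42.7 CPM, with PTPRC and CD3E at 0 counts and the sum carried by CD14 (8.97 ± 2.27 and 13.6 ± 6.33 CPM) and CD68 (22.5 ± 11.4 and 18.8 ± 5.76 CPM), neither of which passed.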

How the data were processed

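RNA was sequenced from MCF10CA1a cells on 500 Pa and 8000 Pa gels. The authors deposited 1 table per library with a raw count and a TMM-scaled log2 value per gene symbol. Per the submitters' processing notes, HISAT2 2.1.2, HTSeq 0.11.4, limma and DESeq2 were used with GRCh38. The annotation release, strand setting and handling of reads that match several places are not stated in any source used, so counts of near-identical or overlapping genes are uncertain. The deposited log2 values were filled in for 22 of the 42 members and were not used in tests.

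The deposited counts were tested with edgeR 4.0.16 (R 4.3.3). The filterByExpr step (min.count 10, min.total.count 15) left 11517 genes, and TMM scaling and the quasi-likelihood F test with Benjamini-Hochberg adjustment at an FDR of 0.05 were used. Stiffness alone was the main design. The fit with the replicate number as a block was an alternative. Deviations from the group means of same-numbered libraries correlated across genes at 0.409, 0.184 and 0.516 for replicates 1, 2 and 3, each above 0.1, so the numbers were taken to pair the libraries. The numbers do not single out pair 2, since 500 Pa replicate 2 correlated with 8000 Pa replicate 1 at 0.199; the other unmatched values were below 0.1. No label says what a shared number stands for. The paired fit has 2 residual degrees of freedom, and edgeR estimated an infinite prior, so all genes share a single trend of the spread. Each edgeR SE is the absolute log2 fold change over the square root of the F statistic. In the paired fit it follows that trend and not a gene's own pairs. CPM is TMM-scaled, and log2 ratios in pairs use a prior count of 2. TPM was computed from the counts and the length of the longest protein-coding transcript in GENCODE 29, which is a coding length for SPRR1A. Transcript GC content, known for 95.4% of tested genes, gave a per-library offset (lowess, span 0.3). DESeq2 1.42.0 and limma 3.58.1 were alternatives. Every 2 libraries of a group differed beyond sampling noise (chi-square per degree of freedom of 11.6 or more).

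The fits were tested on simulated counts. Promoter sequences are those of RefSeq on GRCh38.p14, matched by symbol for 31 members. The members and lists were chosen with earlier results of these data known. All members are reported, and from each further list the called genes or, failing these, the 2 of highest level. One leukocyte marker is not reported here.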

Additional observations from a re-analysis of the deposited data

How the results depend on the processing

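Leaving out single libraries or pairs, with or without the replicate block, gave 0 to 56 called genes in all and 0 to 2 called members, and medians of the members from -0.49 (paired, without replicate 2) to 0.27 (without 500 Pa replicate 3). Over all genes the paired fit called 61, the paired fit with a GC offset 86, paired DESeq2 42, DESeq2 without pairing 7 and edgeR without the filter on low counts 8, where the unpaired fit called 0. Among members the replicate block called 1 (PADI3, also without replicates 1 or 2) and the GC offset with the block 3. RLE scaling and limma-voom, run without the block, and DESeq2, run with and without it, called 0 members. Of 448 single-member values under alternatives, 36 changed sign, in 14 members. With the GC offset these were SPRR1A (0.25), KLK6 (0.033) and LYPD3 (0.056). The other sign changes came from leaving out libraries, with ranges of -0.76 to 0.45 for SPRR1A, -1.05 to 0.27 for SPRR1B, -1.29 to 0.074 for SPRR2A, -1.35 to 1.12 for SPRR3, -0.66 to 0.073 for CNFN, -0.70 to 0.037 for TGM1, -0.75 to 0.071 for TGM5, -0.30 to 0.37 for EVPL, -0.018 to 1.39 for CALML5, -0.60 to 0.38 for KLK6, -0.64 to 0.15 for KLK10, -0.022 to 0.88 for KLK11, -0.56 to 0.11 for LYPD3 and -0.38 to 1.32 for CLIC3. The cause was not tested. The other 14 members kept their sign under the 16 alternatives, but all except SCEL moved by over 1.5 times when some library or pair was left out. KLK5 stood at -0.15 without 500 Pa replicate 3, PPL at 0.0011 without 8000 Pa replicate 2, CALML3 at -0.40 without 500 Pa replicate 1, and KLK8 at 0.26 and 1.51 without 500 Pa replicates 2 and 3. Depth limits the 14 members that were not tested, which held 54 counts or fewer over 6 libraries.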
